A study of Mus musculus with 32 samples.

Results

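The levels of 10 mouse genes of VEGF and angiopoietin signalling were compared between liver cells and colorectal cancer (CRC) cells. The genes were the ligands *Vegfa*, *Vegfb*, *Vegfc*, *Pgf* and *Angpt2* and the receptors *Flt1*, *Kdr*, *Flt4*, *Tek* and *Tie1*. They were taken by name, as the probes other than control probes whose gene name in the scanner output was one of the 10. This gave 14 of the 55681 probes, for 10 of the 34821 distinct names of the array. A gene with several probes is given by the probe of highest variance over all samples, tumor samples included. The study's methods state this rule for setting mRNA against protein. The shares of all probes given below are without such a choice of probe.

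The mRNA was measured on 16 Agilent mouse arrays, each with one Cy3 and one Cy5 sample, and there were 4 samples in each of 8 groups. Male Balb/c mice, 6 to 8 weeks old at the start, received C26 colon carcinoma cells, a mouse line that is syngeneic with Balb/c, in the spleen, and control mice received PBS. The livers were digested after 14 days by the methods and 15 days by a legend, and the cells were separated by density and adherence and cultured for up to 24 h. The 3 control groups were endothelial, Ito and Kupffer cells of the PBS mice, and the 3 tumor microenvironment (TME) groups were the same cell types from livers with metastases. The other groups were labelled liver metastasis cells (TM) and CRC primary cells (TP), and the sources used here do not say from where they were taken. All tumor material came from 1 cell line. The samples are called biological replicates by the study, and whether animals were pooled is not given.

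VEGF ligands are secreted factors that bind receptor tyrosine kinases on endothelial cells and control the growth and permeability of blood and lymph vessels. The angiopoietins act on a second pair of endothelial receptors, TIE2 (encoded by *Tek*) and TIE1, which control the stability of vessels. In the liver, sinusoidal endothelial cells carry VEGF receptors, and hepatocytes and stellate cells are known sources of VEGF. Ito cell is another name for the hepatic stellate cell, and Kupffer cells are the macrophages that reside in the liver.

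Each level below is the hybridization to a probe of 60 bases, so levels of one gene are compared between groups and never with the level of another gene. The probes of the paralogous receptor genes *Tek* and *Tie1* lie in coding sequence and are shown because they cover the same stretch of both receptors. The capitals mark bases that are the same in both, 39 of 57 aligned bases or 68.4%, so the probes differ at nearly 1 in 3 positions there. The positions, taken from the files, refer to mm9. The *Tek* probe lies on the plus strand at chr4:94540624-94540683 and the *Tie1* probe on the minus strand at chr4:118144132-118144191.
Tek: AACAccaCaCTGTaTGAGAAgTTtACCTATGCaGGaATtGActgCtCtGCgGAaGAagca
Tie1: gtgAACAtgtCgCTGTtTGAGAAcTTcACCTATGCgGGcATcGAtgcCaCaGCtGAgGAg

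The promoters of *Kdr*, *Tek* and *Tie1* are shown as examples. By the probes used, these 3 receptors were at background in all or most tumor samples. The same held for *Flt1* and *Flt4*, which are not shown, so the levels do not single out these 3. The other probe of *Kdr* was well above background in all tumor samples. The sequences are the 250 bases before the gene start in RefSeq (GRCm38.p6), and capitals mark the core CNGGAA of the motif of ETS factors, a family that is known to act at endothelial promoters, or its reverse TTCCNG. *Kdr* (minus strand, chr5:75978456-75978705) held 2 matches, 153 and 120 bases before the start. *Tek* (plus strand, chr4:94739039-94739288) also held 2, at 89 and 59 bases, and *Tie1* (minus strand, chr4:118489850-118490099) held 3, at 209, 90 and 80 bases. *Flt1* and *Flt4* held 1 each. This short motif was found in 54.2% of the 32851 promoters of the table, counted over the same 250 bases before the start. It was in 6 of the 9 genes with an entry, so its presence sets these genes apart from no other. The hypoxia response element ACGTG, found on either strand in 16.6% of promoters, was in 1 of the *Vegfa* entries and in no entry of the other genes. *Angpt2* had no entry.
Kdr: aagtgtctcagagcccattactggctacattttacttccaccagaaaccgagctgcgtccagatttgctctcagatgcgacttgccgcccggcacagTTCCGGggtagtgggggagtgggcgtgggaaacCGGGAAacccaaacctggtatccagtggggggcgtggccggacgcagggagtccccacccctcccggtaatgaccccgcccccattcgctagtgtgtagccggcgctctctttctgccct
Tek: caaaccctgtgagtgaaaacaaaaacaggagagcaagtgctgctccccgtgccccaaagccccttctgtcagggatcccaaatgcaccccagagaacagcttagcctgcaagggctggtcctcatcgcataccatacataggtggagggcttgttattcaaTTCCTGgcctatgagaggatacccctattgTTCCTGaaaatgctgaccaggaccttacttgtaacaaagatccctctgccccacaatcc
Tie1: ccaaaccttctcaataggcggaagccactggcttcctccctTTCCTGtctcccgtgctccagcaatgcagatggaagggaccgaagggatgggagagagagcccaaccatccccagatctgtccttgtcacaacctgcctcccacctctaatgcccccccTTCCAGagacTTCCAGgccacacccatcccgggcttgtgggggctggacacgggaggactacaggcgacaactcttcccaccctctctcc

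Levels are the log2 of the quantile-normalized intensities that the authors deposited. A difference is the difference of 2 group means on this scale, from a limma fit of the 32 samples to the 8 groups, and it was called where the Benjamini-Hochberg adjusted p over all 55681 probes was under 0.05. Cy3 labelled the control and TM samples on every array and Cy5 the TME and TP samples, so dye and condition cannot be told apart. Endothelial and Ito arrays lay on one slide and Kupffer and tumor arrays on the other. The share of spots well above background was 38.4 to 57.1% per sample, and no spot was saturated. For Ito and for Kupffer cells, array 4 had TME minus control values opposite in sign to arrays 1 to 3, with correlations to the mean of these of -0.66 and -0.60 over 17105 probes against 0.51 to 0.78 for the endothelial arrays. The TP minus TM arrays had 0.64 on arrays 2 and 3 and -0.20 and -0.07 on arrays 1 and 4. TME Ito replicate 2 had the highest summed level of 6 epithelial markers (*Epcam*, *Cdh1* and keratins) of all samples, 17.23 on the log2 scale against 12.19 in the lowest TME Ito sample, and it and control Kupffer replicate 3 had the lowest weights in a fit with sample weights (0.14 and 0.229). No sample was moved or dropped, and values without these 6 are given where they matter. The 14 endothelial markers were well above background in all samples of both endothelial groups, but 13 or 14 of them were so in the Ito and Kupffer groups too, and the summed level was 17.11 to 17.40 in control endothelial against 16.75 to 17.17 in control Ito samples. The 10 Kupffer markers summed to 16.34 to 19.06 in control Kupffer and 16.44 to 18.74 in control Ito samples. In all TME Ito samples 10 of the 12 Ito markers were well above background, but *Lrat*, a defining Ito gene, was so in none. Neither *Epcam* nor *Cdh1* was well above background in any TM or TP sample. The keratin genes *Krt18* and *Krt20* were called higher, and *Cdh1* lower, in both tumor groups than in the Kupffer groups. *Cdh1* was well above background in 1 control Kupffer sample alone, and the lower limit of its fold against TM was 1.01. In bulk samples, fewer cells of a type and less RNA per cell cannot be told apart.

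**Figure D1:**
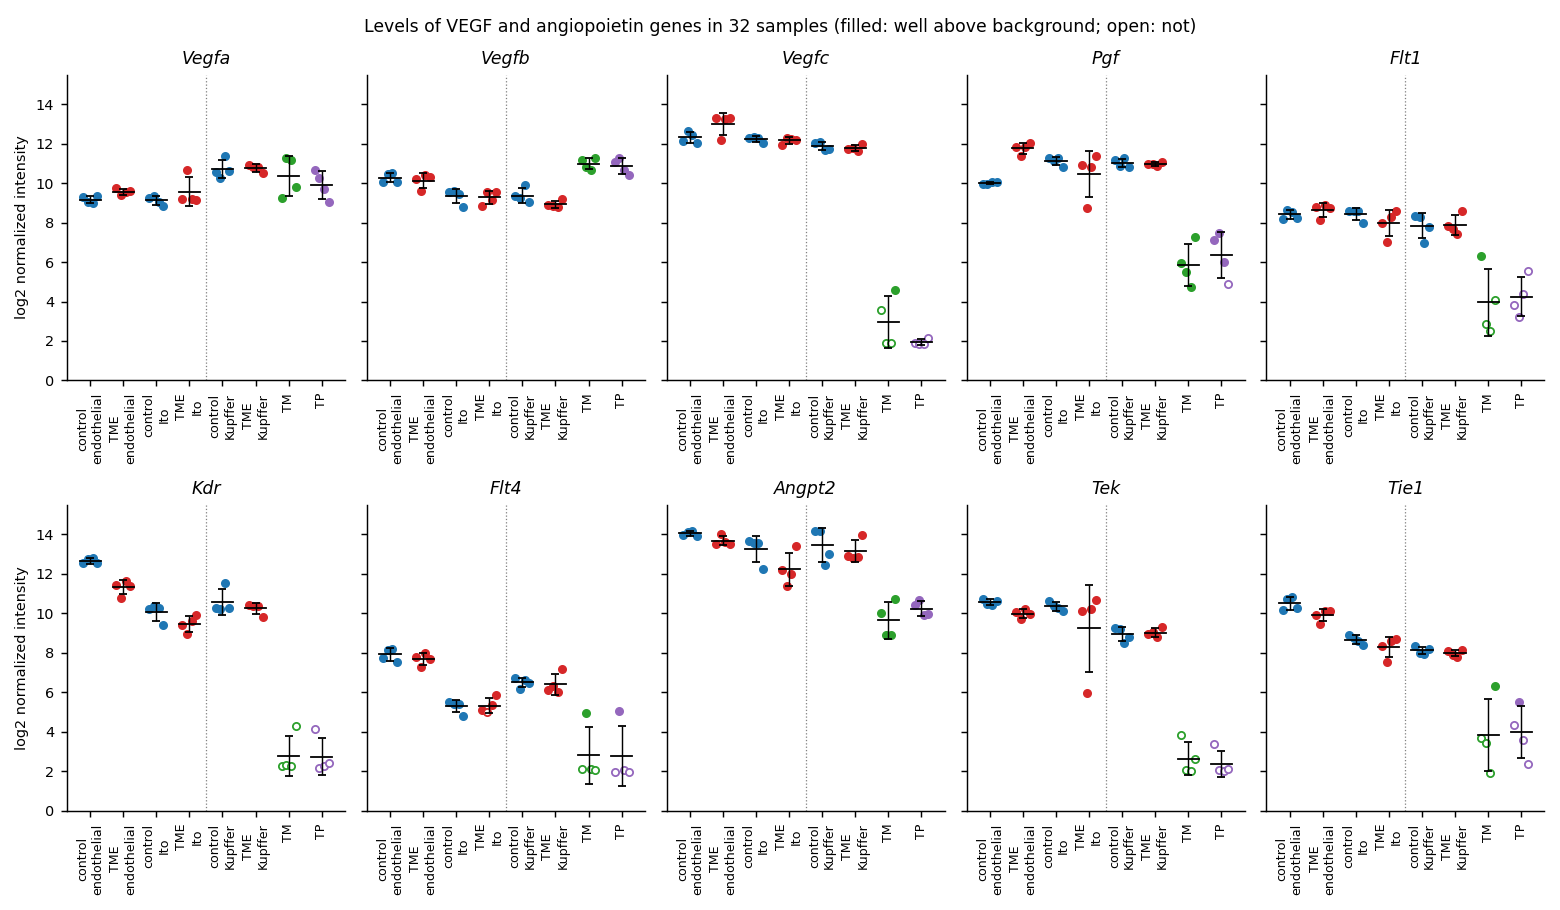
Level of each gene (log2 normalized intensity, vertical axis) in the 4 samples of each of the 8 groups, with the group mean and SD as bars. Filled points are well above background and open points are not, and the dotted line separates the slides. By the probes used, *Kdr* and *Tek* had no filled point in TM and TP, whereas *Vegfa*, *Vegfb* and *Angpt2* were filled in all 32 samples.

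Of the ligands, *Vegfa*, the main driver of vessel growth, was well above background in every sample. By the probe used, its group means were highest in Kupffer cells, with 10.54, 10.27, 11.35 and 10.63 in the 4 control and 10.90, 10.84, 10.83 and 10.49 in the 4 TME samples. The TM samples lay apart from each other, with replicates 1 and 4 at 9.23 and 9.80 and replicates 2 and 3 at 11.25 and 11.15. By the second probe of *Vegfa* the highest mean was that of TM (11.28 ± 1.18), before TME Kupffer cells (11.16 ± 0.10). In the order of the group means by the probe used, no neighbours were separated beyond their spread, from TME Kupffer (10.77 ± 0.19, SD, n = 4) down to control Ito cells (9.12 ± 0.23).

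*Vegfb* encodes a ligand of FLT1 that is known mainly from muscle and fat. Its means were highest in the tumor groups, with samples at 11.15, 10.84, 10.65 and 11.26 in TM and 11.06, 11.29, 10.67 and 10.40 in TP. The lowest TP sample lay within the range of both endothelial groups. Every liver group overlapped the next one in the order of means, from 10.27 ± 0.23 in control endothelial to 8.92 ± 0.19 in TME Kupffer cells. *Vegfc*, the ligand of lymphatic growth, showed the opposite order, with group means of 11.78 to 13.01 in the liver groups against 2.97 ± 1.33 in TM and 1.94 ± 0.14 in TP. It was well above background in all 24 liver samples, in 1 TM sample and in no TP sample.

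*Pgf*, whose product placental growth factor binds FLT1 only, was at 9.93, 9.96, 10.08 and 10.05 in the control endothelial samples, the liver group of lowest mean. TME endothelial cells had the highest mean, with 11.82, 11.36, 11.84 and 12.04, and lay wholly above the next group, control Ito cells at 11.12 ± 0.22. They overlapped TME Ito cells, which spread from 8.74 to 11.39. *Angpt2*, whose product is stored in endothelial cells and acts on TIE2, had its highest mean in control endothelial cells (14.05 ± 0.12), and the 6 liver groups overlapped in a chain down to TME Ito cells (12.24 ± 0.84). TP (10.24 ± 0.38) and TM (9.64 ± 0.92) lay below all liver groups but were well above background.

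Among the receptors, *Kdr* (VEGFR2, the main signalling receptor of VEGF-A), by the probe used, separated control endothelial cells from every other group, at 12.55, 12.77, 12.82 and 12.53. Its other probe had its highest mean in TM (12.61 ± 0.24), with control endothelial cells at 11.87 ± 0.11. *Tie1*, a receptor that modulates TIE2, had the same order at the top as the *Kdr* probe used. Its control endothelial cells were at 10.51 ± 0.33 and TME endothelial cells at 9.91 ± 0.30, both wholly above all other groups. *Flt4* (VEGFR3, the receptor of VEGF-C) had 3 tiers in the liver, endothelial cells at 7.92 ± 0.32 and 7.68 ± 0.29 in control and TME, Kupffer cells at 6.51 ± 0.23 and 6.41 ± 0.53, and Ito cells at 5.30 ± 0.32 and 5.33 ± 0.37. The endothelial tier did not overlap the Kupffer tier, nor the Kupffer tier the Ito tier, but the steps to Kupffer cells also cross the slides.

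*Tek*, the receptor of the angiopoietins, was similar in endothelial and Ito cells, with 10.57 ± 0.15 in control endothelial and 10.35 ± 0.21 in control Ito samples, and its liver groups overlapped in a chain down to control Kupffer cells (8.95 ± 0.37). *Flt1* (VEGFR1, which binds VEGF-A, VEGF-B and placental growth factor), by the probe used, varied little in the liver, from 8.63 ± 0.35 in TME endothelial to 7.85 ± 0.63 in control Kupffer cells, and every group overlapped the next. By this probe its TM and TP samples were at 2.53 to 6.33, below all liver samples. Its brighter probe A_51_P398723 ran from 11.58 ± 0.15 in control endothelial to 10.17 ± 0.63 in TME Ito cells. By it, TME endothelial and TME Ito cells did not overlap.

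The first question was whether these genes differed between cells from livers with metastases and from control livers. In endothelial cells *Pgf* was higher and *Kdr* lower in TME samples, each on all 4 arrays and with no overlap between the groups, and neither passed the threshold. No gene was called of the 10, against 1.14% of all probes, and 2 had an unadjusted p under 0.05. The groups did not overlap for 5 of the 10 genes (*Vegfa*, *Pgf*, *Kdr*, *Tek* and *Tie1*), against 13.0% of all probes. The median difference of the 10 genes was -0.19 and that of all probes 0.01.

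The difference of *Pgf* was 1.89, 1.39, 1.75 and 1.98 on arrays 1 to 4. The fit gave 1.76 with an SE of 0.49 and a 95% interval of 0.75 to 2.76, or 3.38-fold, and a limma adjusted p of 0.0897. The exact permutation test of 4 against 4 gave 0.0286 (two-sided), the smallest value this design allows. Groups without overlap always give this value, so for *Pgf* and the other 4 such genes it adds nothing to the lack of overlap. *Pgf* was called without TME Ito replicate 2 and control Kupffer replicate 3, which enter only the estimate of the spread (limma adjusted p = 0.0211), and its difference stayed at 1.68 to 1.88 when any replicate number was left out, with limma adjusted p of 0.0895 to 0.72.

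*Kdr* was at 11.45, 10.80, 11.66 and 11.39 in the TME endothelial samples, all below the lowest control value of 12.53. The difference was -1.34 with an SE of 0.41 and a 95% interval of -2.19 to -0.49, or 2.53-fold lower, and a limma adjusted p of 0.159. On the arrays it was -1.10, -1.97, -1.16 and -1.13. The second probe of *Kdr* was also lower in all TME samples, by a smaller amount (-0.35, limma adjusted p = 1).

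The remaining ligands and receptors differed less in endothelial cells. *Vegfa* was 9.31, 9.03, 8.97 and 9.35 in control and 9.73, 9.39, 9.56 and 9.58 in TME samples, a difference of 0.40 (SE 0.38, 95% interval -0.38 to 1.18, limma adjusted p = 1). The groups just missed each other, since the highest control value was 9.35 and the lowest TME value 9.39. *Vegfc* was higher in 3 TME samples (13.32, 13.26 and 13.28) but not in replicate 2 (12.19), with a difference of 0.70 (SE 0.37, limma adjusted p = 0.734).

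*Tek* (10.05, 9.70, 10.22 and 9.99 in TME samples) and *Tie1* (9.91, 9.48, 10.14 and 10.12) lay below all their control samples, with differences of -0.58 (SE 0.61) and -0.59 (SE 0.58) and a limma adjusted p of 1 for both. *Flt1*, *Flt4*, *Vegfb* and *Angpt2* differed by 0.22, -0.24, -0.14 and -0.37, and their groups overlapped. In the same samples other markers moved. Of 9 hepatocyte markers, *Apoa2* (-2.09), *Ttr* (-1.88) and *Cyp2e1* (-2.72) were called lower in TME endothelial cells, and the log2 of the list's summed level was 13.68 to 14.75 against 14.62 to 14.89 in control. None of 8 neutrophil markers was called, and the summed level was 11.93 to 12.99 in TME against 9.98 to 10.50 in control samples. None of the Kupffer, T and NK or Ito markers was called either. The summed level of Kupffer markers was 16.03 to 16.65 in TME against 15.30 to 15.91 in control samples and that of 5 T and NK markers 10.17 to 10.72 against 9.75 to 9.90. That of Ito markers was below the lowest control value of 18.05 in all TME samples, the lowest of which was at 17.29. Of 5 cycling markers, *Mki67* was called higher (2.30), and the summed level was 8.92 to 10.31 against 7.29 to 7.73. Of the 14 endothelial markers, *Vwf* was called higher (1.80) and none lower, the median difference was -0.37, and the summed level was 16.83 to 17.12 in TME against 17.11 to 17.40 in control samples. *Clec4g*, a marker of sinusoidal endothelium, differed by -1.73 (limma adjusted p = 0.115) and *Gpr182* by -1.58 (limma adjusted p = 0.63). The part of endothelial and other cells in the differences of *Pgf* and *Kdr* was not tested.

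**Figure D2:**
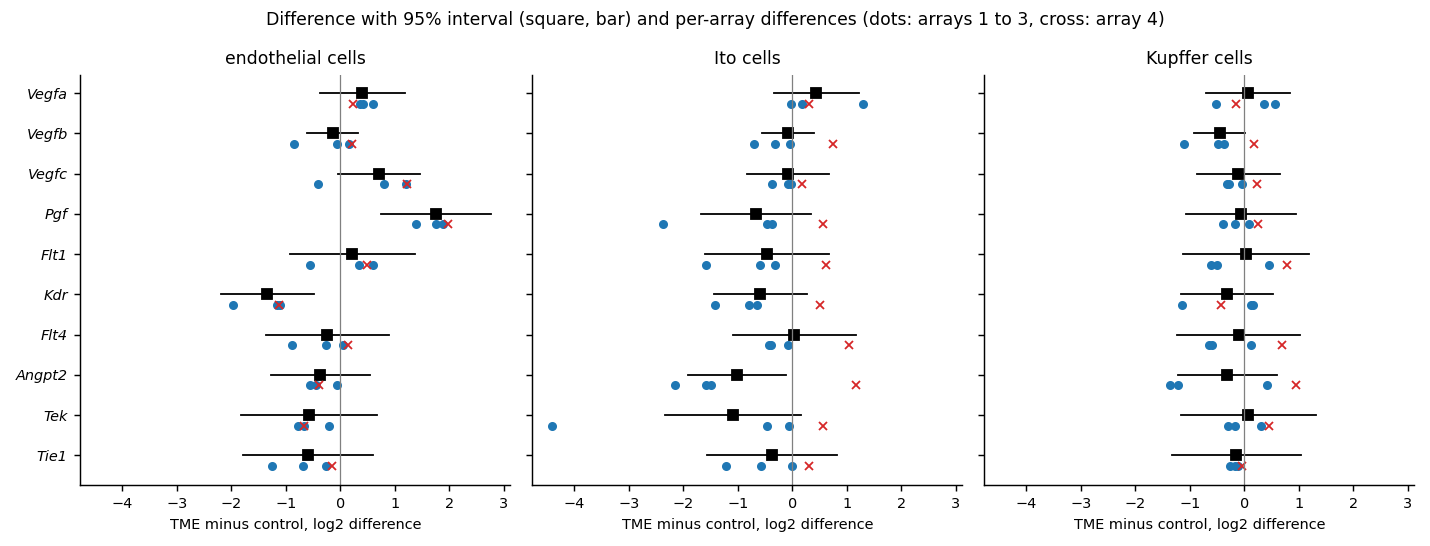
Difference between TME and control (log2, horizontal axis) of the 10 genes in the 3 liver cell types, as the fitted difference with its 95% interval (square and bar) and the differences on arrays 1 to 3 (dots) and array 4 (crosses). In endothelial cells all points of *Pgf* lie right of 1 and all of *Kdr* left of -1, and in Ito cells the cross of *Angpt2* lies at 1.16, opposite to its dots.

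In Ito cells no gene was called of the 10, against 0.289% of all probes, and by the probes used 1 (*Angpt2*) had an unadjusted p under 0.05. *Flt1* had one too by its probe A_51_P398723 (limma unadjusted p = 0.014). No gene had groups that did not overlap, against 8.92% of all probes. The median difference was -0.42 against 0.00 for all probes, with 2 genes higher and 8 lower. *Angpt2* was at 13.67, 13.57, 13.57 and 12.24 in control and 12.18, 11.41, 11.98 and 13.40 in TME samples, so that replicate 4 stood opposite to the other 3 replicates in both groups. Its difference was -1.02 (SE 0.44, 95% interval -1.92 to -0.12, limma adjusted p = 0.448) over all 4 replicates and -1.75 (limma adjusted p = 0.0107) without Ito and Kupffer replicate 4, where it was called. On the arrays the differences were -1.49, -2.16, -1.59 and 1.16.

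By the probes used, the differences of *Tek*, *Pgf*, *Vegfa* and *Flt1* in Ito cells rested largely on TME Ito replicate 2. *Tek* was at 10.14, 5.98, 10.22 and 10.68 in the TME samples, and its difference of -1.09 (limma adjusted p = 0.559) became -0.00 without this sample and control Kupffer replicate 3. *Pgf* was at 10.91, 8.74, 10.82 and 11.39, and its difference of -0.66 (limma adjusted p = 0.693) became -0.08. *Vegfa* was highest in the same sample (10.67 against 9.15 to 9.21), with a difference of 0.44 (limma adjusted p = 0.753) that became 0.07. The difference of *Flt1* went from -0.47 to -0.15 by the probe used. By its probe A_51_P398723 the difference was -0.86 (limma adjusted p = 0.386), with -1.32, -1.98, -0.88 and 0.75 on arrays 1 to 4. The part of the epithelial markers of TME Ito replicate 2 in these values was not tested. *Kdr* differed by -0.59 (limma adjusted p = 0.668) by -0.96 (limma adjusted p = 0.274) without replicate 4 and by -0.42 (limma adjusted p = 0.871) without TME Ito replicate 2 and control Kupffer replicate 3. *Tie1*, *Vegfb*, *Vegfc* and *Flt4* differed by -0.37, -0.08, -0.08 and 0.03.

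In Kupffer cells no gene was called of the 10, against 0.436% of all probes, no gene had an unadjusted p under 0.05, and no groups were without overlap, against 7.06% of all probes. The median difference was -0.11 against -0.00 for all probes. The differences lay between -0.45 for *Vegfb* (SE 0.23, limma adjusted p = 0.698) and 0.07 for *Vegfa* and *Tek*. *Angpt2* was at 14.15, 14.19, 12.46 and 13.03 in control and 12.93, 12.82, 12.87 and 13.99 in TME samples, with differences of -1.22, -1.37, 0.41 and 0.95 on the arrays. Without Ito and Kupffer replicate 4 its difference was -0.73 (limma adjusted p = 0.438) in place of -0.31.

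Whether the difference between TME and control itself differed between the cell types was tested as a contrast in the same fit. No gene of the 10 was called, against 0.111% of all probes for endothelial minus Ito, 0.0808% for endothelial minus Kupffer and 0.00359% for Ito minus Kupffer cells. The largest of these values was that of *Pgf*, which differed by 2.42 more in endothelial than in Ito cells (SE 0.69, limma adjusted p = 0.311) and by 1.82 more than in Kupffer cells (SE 0.69, limma adjusted p = 0.998). *Pgf* was called for endothelial minus Ito without replicate 4 of all groups.

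The next question was how the levels differed between endothelial and Ito cells, which shared a slide and, within a condition, a dye. In control livers *Kdr*, *Flt4*, *Tie1* and *Vegfb* were higher in endothelial cells. These were 4 of 10 genes called, against 9.89% of all probes, and all were higher, against 5.72% of probes called higher. The groups did not overlap for 6 of the 10 genes, against 21.7% of all probes. The median difference was 0.50 against -0.01 for all probes.

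*Kdr* was at 10.20, 10.37, 10.29 and 9.40 in the control Ito samples, all far below the endothelial samples, a difference of 2.60 (SE 0.41, 6.08-fold, limma adjusted p = 0.000105). *Flt4* was at 7.73, 8.16, 8.22 and 7.56 in control endothelial and 5.53, 5.43, 5.42 and 4.82 in control Ito samples, a difference of 2.62 (SE 0.55, 6.14-fold, limma adjusted p = 0.00195). *Tie1* was at 10.17, 10.75, 10.84 and 10.27 against 8.92, 8.75, 8.59 and 8.39, a difference of 1.84 (SE 0.58, 3.59-fold, limma adjusted p = 0.04). No sample of these receptors crossed between the groups. The call of *Tie1* was lost when replicate 1, 2 or 3 was left out (limma adjusted p = 0.17, 0.155 and 0.187), without Ito and Kupffer replicate 4 (0.103) and with the replicate number as a block (0.0543).

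*Vegfb* was at 10.08, 10.45, 10.49 and 10.06 in endothelial and 9.55, 9.59, 9.43 and 8.81 in Ito samples, a difference of 0.92 (SE 0.23, 1.9-fold, limma adjusted p = 0.00873), and it was not called without replicate 3 (0.88, limma adjusted p = 0.0731). *Pgf* ran the other way without passing the threshold, at 11.28, 11.11, 11.29 and 10.83 in Ito samples, all above the endothelial ones (-1.12, SE 0.49, limma adjusted p = 0.178). *Pgf* was called lower with either normexp background correction, with only the groups compared, with sample weights and with the methods' t-test. *Angpt2* was higher in all endothelial samples (0.79, limma adjusted p = 0.334), and by 0.45 (limma adjusted p = 0.593) without Ito and Kupffer replicate 4. *Tek*, *Flt1*, *Vegfc* and *Vegfa* differed by 0.22, -0.03, 0.08 and 0.04, and the 95% interval for *Vegfa* was -0.73 to 0.82.

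In TME livers 4 of 10 genes were again called, against 8.26% of all probes, all higher in endothelial cells, against 4.78% of probes called higher. The groups did not overlap for 5 genes, against 16.0% of all probes, and the median difference was 1.08 against 0.00. *Kdr* differed by 1.86 (SE 0.41, 3.62-fold, limma adjusted p = 0.00456), *Flt4* by 2.35 (SE 0.55, 5.09-fold, limma adjusted p = 0.00641) and *Vegfb* by 0.86 (SE 0.23, 1.82-fold, limma adjusted p = 0.0169). *Angpt2* differed by 1.44 (SE 0.44, 2.71-fold, limma adjusted p = 0.0405). All endothelial samples of these 4 genes lay above all Ito samples.

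Of the 4 calls in TME livers, those of *Angpt2*, *Vegfb* and *Flt4* were lost without replicate 1 or 3. That of *Angpt2* was also lost without replicate 2 and without TME Ito replicate 2 and control Kupffer replicate 3 (1.16, limma adjusted p = 0.0817). The calls of *Vegfb* and *Angpt2* were also lost with only the groups compared (limma adjusted p = 0.1 and 0.104) and with the methods' t-test. *Tie1* was higher in all endothelial samples without passing the threshold (1.62, SE 0.58, limma adjusted p = 0.0844). *Pgf* (1.30, SE 0.49, limma adjusted p = 0.109) and *Vegfc* (0.86, limma adjusted p = 0.173) were also higher on average. The value of *Pgf* was 0.72 (limma adjusted p = 0.365) without TME Ito replicate 2 and control Kupffer replicate 3, and *Vegfa* differed by 0.00 (95% interval -0.78 to 0.78).

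Markers of other cells differed between the same groups. Of 14 endothelial markers, 5 were called higher in control endothelial than in control Ito cells (among them *Gpr182*, 3.91, and *Oit3*, 3.38) and 2 lower (*Mcam* and *Vwf*), and in TME livers 6 were higher and 1 lower. Of 9 hepatocyte markers, 7 were called lower in control and 9 in TME endothelial cells, with a summed level of 14.62 to 14.89 in control endothelial against 16.87 to 18.81 in control Ito samples. Of 10 Kupffer markers, 5 were called lower in control endothelial cells, at 15.30 to 15.91 against 16.44 to 18.74. Of 4 erythroid markers, 3 were called lower in control and in TME endothelial cells, with medians of -3.39 and -4.95 and a summed level of 10.51 to 11.76 in control endothelial against 14.76 to 16.61 in control Ito samples. Of 12 Ito markers none was called, and the summed level was 18.05 to 18.41 in control endothelial and 17.13 to 18.23 in control Ito samples, so this list did not set the Ito samples apart. The part of other cells in the differences between endothelial and Ito samples was not tested.

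**Figure D3:**
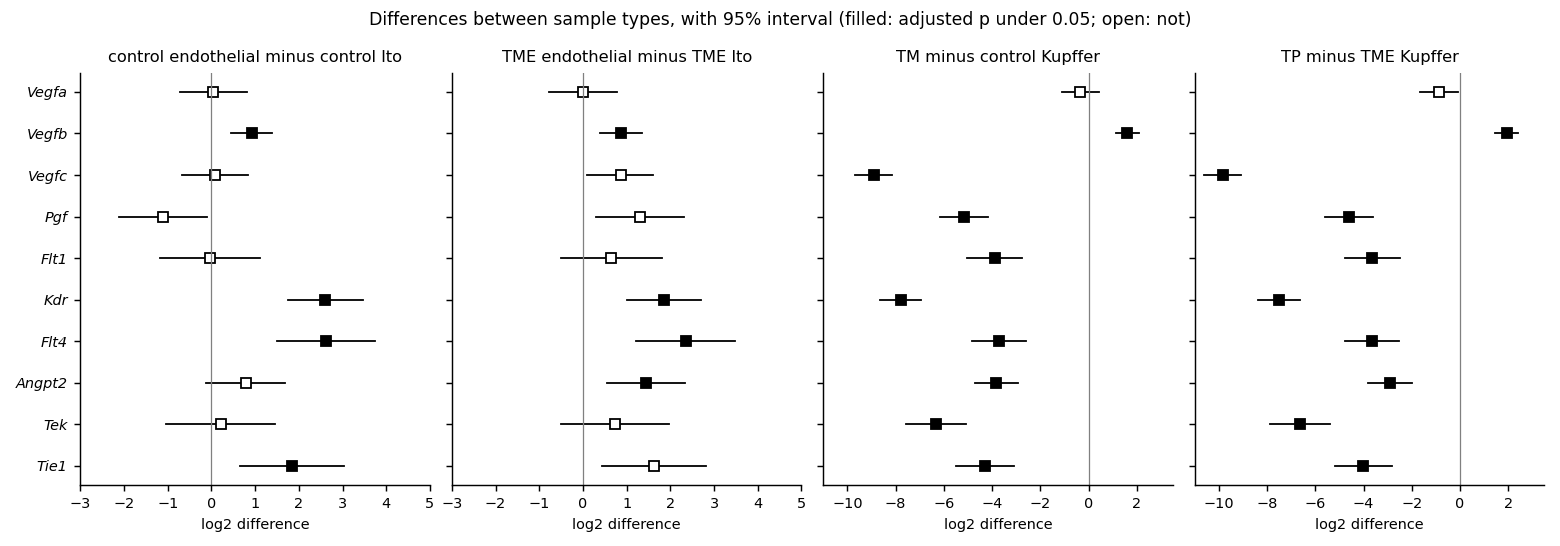
Fitted log2 difference (horizontal axis) of the 10 genes with its 95% interval in 4 comparisons between sample types, filled where the adjusted p was under 0.05. Values of *Vegfc*, *Flt1*, *Kdr*, *Flt4*, *Tek* and *Tie1* against TM or TP rest partly on signals at background. The vessel receptors *Kdr* and *Flt4* are filled right of 0 in both endothelial comparisons, and *Vegfb* is the one gene right of 0 against tumors.

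Tumor samples were compared with Kupffer samples, which shared their slide and, pair by pair, their dye. In TM against control Kupffer cells 9 of 10 genes were called, against 39.4% of all probes. One was higher (*Vegfb*), against 23.3% of probes, and 8 were lower, against 16.2%, and the groups did not overlap for 9 genes, against 36.7%. In TP against TME Kupffer cells 9 of 10 were called, against 43.6%, with 1 higher (25.7% of probes) and 8 lower (17.8%), and 9 did not overlap, against 45.3%. With the probe of highest mean in place of highest variance, 8 of 10 genes were called in each of these comparisons. The median difference of the 10 genes was -4.10 in the first and -3.83 in the second comparison, against 0.08 and 0.10 for all probes, and -3.86 and -3.28 with the genes at background set to their bound.

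*Vegfb* was at 9.36, 9.22, 9.88 and 9.03 in control Kupffer cells, below all TM samples, a difference of 1.60 (SE 0.23, 3.04-fold, limma adjusted p = 1.42e-06). Against TME Kupffer cells (8.88, 8.85, 8.77 and 9.21), TP was higher by 1.93 (SE 0.23, 3.81-fold, limma adjusted p = 6.01e-08). *Vegfa* was not called in either comparison, with differences of -0.34 (95% interval -1.12 to 0.44, limma adjusted p = 0.544) in TM and -0.86 (-1.64 to -0.08, limma adjusted p = 0.0686) in TP. The difference in TP was called without TME Ito replicate 2 and control Kupffer replicate 3 (limma adjusted p = 0.0342), with a filter on dim probes (0.0431) and with sample weights (0.0128). By the second probe of *Vegfa* the differences were 0.25 (limma adjusted p = 0.644) in TM, opposite in sign, and -0.29 (limma adjusted p = 0.552) in TP. *Vegfa* in TP was at 10.64, 10.27, 9.68 and 9.02, and only the highest of these fell within the range of the TME Kupffer samples.

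Of the ligands that were lower, *Pgf* was at 5.96, 5.48, 4.73 and 7.26 in TM and 7.11, 7.48, 6.0 and 4.90 in TP, against 10.84 to 11.27 in control and 10.88 to 11.08 in TME Kupffer cells. It was 36.2-fold lower in TM (limma adjusted p = 1.07e-09) and 24.3-fold lower in TP (limma adjusted p = 8.27e-09). *Angpt2* was at 10.01, 8.88, 8.90 and 10.75 in TM and 10.43, 10.69, 9.90 and 9.97 in TP, 14.2-fold lower (limma adjusted p = 3.71e-08) and 7.5-fold lower (limma adjusted p = 3.04e-06) than in the Kupffer groups. *Pgf* was not well above background in TP replicate 4, and *Angpt2* was well above it in all samples.

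For a gene that was not well above background in any sample of a group, only a lower limit of the fold can be given. It sets the brighter group against a floor in each sample of the dimmer group, the dimmest probe still well above background there, after loess and Aquantile normalization, and it is open to dye bias. *Vegfc* was at least 49.5-fold lower in TP than in TME Kupffer cells (limma adjusted p = 1.17e-17). In TM, *Vegfc* was well above background in replicate 4 alone, at 4.59, and at 1.88 to 3.55 in the others, against 11.69 to 12.08 in control Kupffer cells (limma adjusted p = 9.11e-17).

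By the probe used, *Kdr* was not well above background in any tumor sample, whereas its other probe was so in all of them and was not lower (below). By the probe used it was at least 17.7-fold lower in TM (limma adjusted p = 1.54e-14) and at least 13.8-fold lower in TP (limma adjusted p = 2.77e-14) than in the Kupffer groups, where it lay between 9.83 and 11.54. *Tek* was likewise at background in all tumor samples, at least 7.74-fold lower in TM (limma adjusted p = 1.41e-09) and at least 7.33-fold lower in TP (limma adjusted p = 4.61e-10). By the probe used, *Flt1* was at least 3.14-fold lower in TP (limma adjusted p = 3.84e-06), and in TM it was well above background in replicate 1 alone (6.33, limma adjusted p = 1.46e-06).

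*Flt4* was well above background in replicate 2 of TM (4.93) and of TP (5.04) and at 1.96 to 2.09 in the other tumor samples, against 6.0 to 7.18 in Kupffer cells. *Tie1* was well above background in replicate 4 of TM (6.31) and replicate 2 of TP (5.52), against 7.80 to 8.33 in Kupffer cells. Both were called lower in TM and TP (limma adjusted p from 5.24e-07 to 2.75e-06), and no tumor sample reached the range of the Kupffer samples. Other markers differed between the same groups. All 14 endothelial markers and all 10 Kupffer markers were called lower in both comparisons. The summed level of the endothelial markers was 12.63 to 13.23 in TM and 13.10 to 13.39 in TP against 16.59 to 17.65 over both Kupffer groups, and *Cdh5*, *Stab2*, *Lyve1*, *Clec4g*, *Emcn* and *Robo4* were not well above background in any tumor sample. Of 9 hepatocyte markers 8 and of 4 erythroid markers 3 were also called lower in both comparisons. All 5 cycling markers were called higher, with medians of 6.90 and 7.59. The part of other cells and of cycling in these differences was not tested.

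TP and TM were compared directly on 4 arrays. No gene of the 10 was called, against 3.01% of all probes, 1 (*Vegfc*) had an unadjusted p under 0.05, and no groups were without overlap, against 10.6% of all probes. The median difference was -0.04 against -0.01. *Angpt2* was higher in TP by 0.61 (SE 0.44, 95% interval -0.29 to 1.51, limma adjusted p = 0.545) and *Vegfa* lower by 0.46 (TP minus TM -0.46, 95% interval -1.23 to 0.32, limma adjusted p = 0.627). *Vegfb* differed by -0.12 (95% interval -0.59 to 0.35). *Vegfc* differed by -1.04 (SE 0.37, limma adjusted p = 0.13) with 1 of the 8 samples well above background. Differences of *Vegfc*, *Flt4*, *Tek* and *Tie1* were not detectable at these signals, since most samples of both groups were at background. The same held for the probes used for *Flt1* and *Kdr*, and their other probes, well above background in all tumor samples, differed by -0.40 (limma adjusted p = 0.623) and -0.03 (limma adjusted p = 1).

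Where a gene had several probes, they did not all tell the same. The probe used for *Kdr* (A_51_P316553, present in 10 spots) was at background in the tumors, whereas its other probe (A_55_P2094469), annotated to the same transcript, was at 12.31, 12.75, 12.55 and 12.85 in TM and 12.40, 12.96, 12.15 and 12.84 in TP. That probe was well above background in all 32 samples, was highest in control Kupffer replicate 3 (13.91) and TME Ito replicate 2 (13.75), and differed by 0.34 (limma adjusted p = 0.566) in TM and 0.68 (limma adjusted p = 0.175) in TP from the Kupffer groups. Between endothelial and Ito cells it differed by 0.37 (limma adjusted p = 0.714) in control and -0.64 (limma adjusted p = 0.393) in TME livers, and between TME and control Ito cells by 0.66 (limma adjusted p = 0.588), opposite in sign to the probe used. All calls of *Kdr* therefore hold for one of its probes only, and which of them follows the transcript was not tested.

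Of the 3 probes of *Flt1*, A_52_P405145 was not well above background in any sample. The probe A_51_P398723 was well above background in all samples, also in TM (8.97, 7.81, 7.94 and 8.02) and TP (7.44, 7.63, 8.05 and 8.02). By this probe *Flt1* was lower in TM (-2.82, limma adjusted p = 4e-08) and TP (-2.61, limma adjusted p = 1.4e-07), as by the probe used. It was also called higher in TME endothelial than TME Ito cells (1.40, SE 0.33, limma adjusted p = 0.00629), where the probe used gave 0.65 (limma adjusted p = 0.586). Where its sign was opposite to that of the probe used, it differed by 0.55 (limma adjusted p = 0.376) between control endothelial and Ito cells and by -0.61 (limma adjusted p = 0.724) between TME and control Kupffer cells. The signs were also opposite between TP and TM (-0.40, where the probe used, mostly at background, gave 0.29) and between TME and control endothelial cells (-0.00 against 0.22). The second probe of *Vegfa* (A_52_P638895) showed the same split of the TM samples, with replicates 1 and 4 at 10.06 and 10.47 and replicates 2 and 3 at 12.27 and 12.30. Between control endothelial and Ito cells it differed by -0.29 (limma adjusted p = 0.756), where the probe used gave 0.04.

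**Figure D4:**
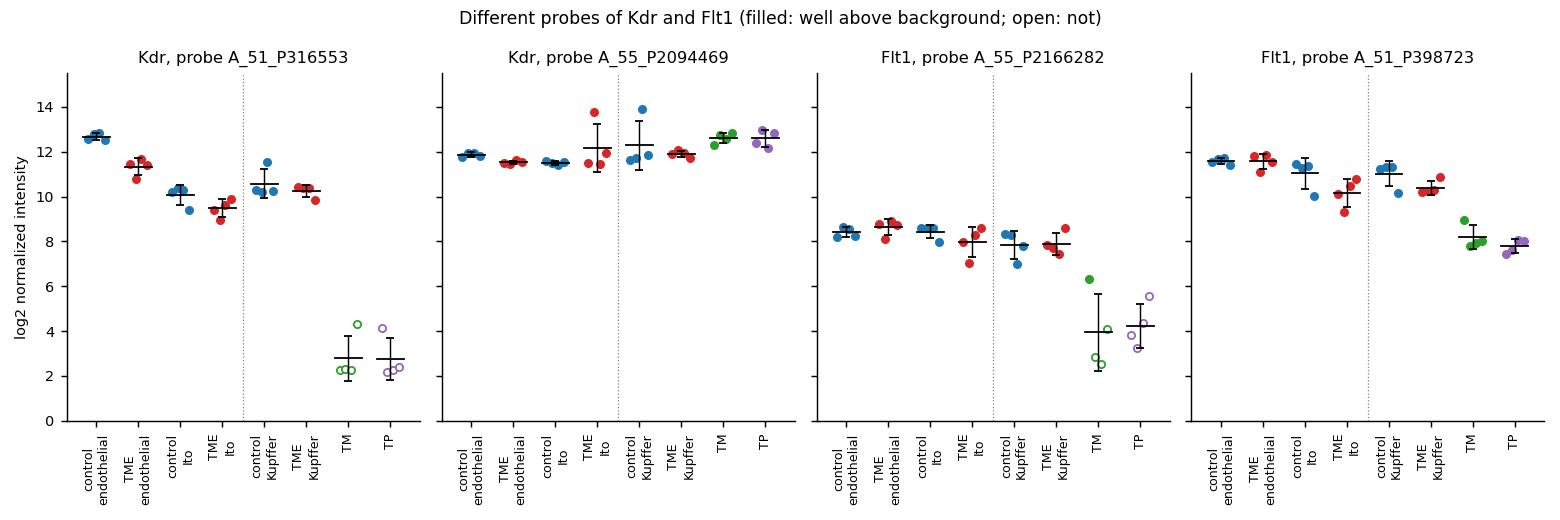
Level (log2 normalized intensity, vertical axis) of the pair of *Kdr* probes and of the *Flt1* probes that were above background, in the 4 samples of each group, with mean and SD. Filled points are well above background. The first *Kdr* probe has no filled point in TM and TP, whereas the second lies between 12.15 and 12.96 there.

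The other genes of the pathway were read from 4 lists. Of the other ligands, co-receptors and regulators of the receptors, 7 of 8 were measured. None was called between TME and control in any cell type or between TP and TM, with medians of -0.30, -0.13, -0.18 and -0.04 against -0.01 to 0.01 for all probes. *Angpt1*, the activating ligand of TIE2, was higher in control endothelial than control Ito cells (3.06, limma adjusted p = 0.00415), where 1 of 4 Ito samples was well above background, and the list's median was 0.49 there and 0.78 in TME livers. *Figf*, which encodes VEGF-D, was well above background in all tumor samples (9.61 ± 0.98 in TM and 10.13 ± 0.23 in TP) and in no Kupffer sample. The limma adjusted p was 3.11e-12 for TM, which was at least 11.2-fold higher, and 2.58e-12 for TP, which was at least 16.9-fold higher. *Cdh5* (VE-cadherin, at least 109-fold and 69-fold lower) and *Ptprb* (the phosphatase of TIE2, at least 59.8-fold and 37.3-fold lower) were not well above background in TM and TP. The co-receptor gene *Nrp2* was lower by -2.12 and -2.42, *Nrp1* was called in TP alone (-1.62), and the medians were -0.96 and -1.62.

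Of 11 genes of receptor signalling, none was called between TME and control or between TP and TM, with medians of 0.07, 0.07, -0.05 and -0.17. The same 3 were higher in endothelial than Ito cells in control and TME livers, namely *Nos3* (endothelial nitric oxide synthase, 3.43 and 2.18), *Plcg1* (phospholipase C gamma, 1.44 and 1.41) and *Prkca* (protein kinase C alpha, 1.17 and 1.43), and the medians were 0.50 and 0.44. The share of all probes called higher was 5.72% in control and 4.78% in TME livers. Against Kupffer cells 3 were higher and 6 lower in both tumor groups, with medians of -0.96 and -0.70. Of the lower ones, *Ptk2* was not well above background in any TM, TP or TME Kupffer sample and was so in 2 control Kupffer samples. Its calls therefore rest on signals at or near background. Over all probes, 23.3% were called higher and 16.2% lower in TM, and 25.7% and 17.8% in TP. *Prkca* was the largest rise, at 4.51 in TM and 4.41 in TP.

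Of 12 hypoxia genes, among which *Slc2a1*, *Bnip3* and *Adm* are known targets of HIF, *Slc2a1* (the glucose transporter GLUT1) was higher in TME endothelial cells, at 13.93 ± 0.32 against 12.69 ± 0.09 (1.23, SE 0.30, limma adjusted p = 0.0349). The list's median was 0.41 there, -0.49 in Ito and -0.16 in Kupffer cells, with no other call. In TME livers 4 were higher in endothelial than Ito cells, against 4.78% of probes, namely *Bnip3* (3.09), *Ankrd37* (1.67), *Slc2a1* (1.30) and *Egln1*, which was not well above background in any TME Ito sample and was at least 1.32-fold higher. The median was 1.68, or 1.50 with *Egln1* at its bound. In control livers none was called, against 5.72% of probes called higher, the median was 0.24, and the difference between control and TME livers was not tested for this list. *Adm* (adrenomedullin) was higher in TP than TM (3.67, limma adjusted p = 0.0336), where 2 of 4 TM samples were well above background, and the median was 0.12. Against Kupffer cells 2 were higher and 7 lower in TM and 3 higher and 7 lower in TP, with medians of -1.33 and -0.85, and -0.29 in TP with genes at their bound. The shares of all probes were 23.3% higher and 16.2% lower in TM, and 25.7% and 17.8% in TP.

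Of 7 genes that are known to respond to VEGF in endothelial cells, *Apln* (apelin) was higher and *Dll4* (a Notch ligand of sprouting vessels) lower in TME endothelial cells, against 1.14% of all probes called. *Apln* was at 10.31 ± 0.92 in TME against 7.68 ± 1.52 in control samples (2.63, SE 0.67, limma adjusted p = 0.0485), and *Dll4* at 5.29 ± 0.53 against 7.43 ± 0.55 (-2.13, SE 0.43, limma adjusted p = 0.00774). The list's median was 0.17, and none was called in Ito (median -0.40, or -0.27 with 1 gene at its bound) or Kupffer cells (median 0.12) or between TP and TM (median -0.15). In control livers *Dll4* (3.94, with 1 of 4 Ito samples well above background) and *Apln* (2.56) were higher and *Rcan1* (-0.87) lower in endothelial than Ito cells, with a median of -0.27. The share of all probes called in either direction was 9.89% there and 8.26% in TME livers. In TME livers *Apln* (6.28, with 1 of 4 Ito samples well above background) and *Cd34* (1.56) were higher and *Rcan1* (-0.64) lower. *Dll4*, not well above background in any TME Ito sample, was at least 1.23-fold higher, and the median of the list was 1.56, or 0.30 with *Dll4* at its bound. Against Kupffer cells *Apln* and *Cd34* were higher and *Dll4* and *Rcan1* lower in both tumor groups, with medians of -0.11 in TM (-0.04 with 2 genes at their bound) and -0.32 in TP. These were 2 of 7 genes in each direction. In TM 23.3% of all probes were called higher and 16.2% lower, and in TP 25.7% and 17.8%. *Dll4* was well above background in 2 control and 1 TME Kupffer sample and in no tumor sample. *Cd34* is also known from other cells than endothelium, and it was at 14.87 ± 0.42 in TM and 15.55 ± 0.38 in TP against 7.65 ± 0.52 in control Kupffer cells.

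The genes whose levels were most like those of the 10 were found by Pearson's r over all 32 samples. For *Kdr* these were *Rapgef5* (r = 0.99), *Phactr2* (0.99) and *Pde2a* (0.98), for *Tie1* *Ramp2*, *Serpina3b* and *Clec14a* (0.97 each), for *Tek* *Tceal1*, *Tspan12* and *Car8* (0.98 each), and for *Flt4* *Tspan18* (0.97). For *Flt1*, *Angpt2*, *Pgf* and *Vegfc* the nearest were *Arhgap29* (0.97), *Mest* (0.96), *Cd93* (0.97) and *F11r* (0.99), for *Vegfb* *Rplp1* (0.97) and for *Vegfa* *Lrsam1* (0.89). The samples share arrays and fall into liver and tumor samples. Over the 24 liver samples r was 0.87 for *Kdr* with *Rapgef5*, 0.95 for *Tie1* with *Clec14a*, 0.92 for *Flt4* with *Tspan18* and 0.68 for *Pgf* with *Cd93*.

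Among the 10 genes themselves, *Kdr* with *Tie1* had an r of 0.95 over all 32 samples and 0.84 over the 24 liver samples, and *Kdr* with *Flt4* 0.88 and 0.86. The values of *Vegfc* with *Pgf* were 0.94 and 0.32, and those of *Pgf* with *Kdr* 0.90 and -0.07. *Vegfa* with *Tek* had -0.36 over all and -0.77 over the liver samples. *Vegfb* ran against *Vegfc* over all samples (-0.70) and with it over the liver samples (0.73). These values are a description over samples that share arrays, dyes and slides.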

How the data were processed

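The mRNA arrays of 32 samples, 4 in each of 8 groups, were analysed. Group, dye and replicate number came from the labels. The authors deposited spot intensities from Feature Extraction, the scanner software of Agilent, and a linear table of quantile-normalized intensity for every probe and sample, whose log2 was used here. Each column of this table matched its own channel best (32 of 32). Of the 32 scanner files, 16 were distinct, 1 per array, of which a sample used the channel of its dye. Gene names and mm9 coordinates are those of the files. The miRNA and protein data of the study were not analysed here.

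The 32 samples were fitted to the 8 groups with limma (lmFit and eBayes), with Benjamini-Hochberg adjustment over 55681 probes and calls at an adjusted p under 0.05. The study's methods name Student's test with the same adjustment. The steps were tested on simulated data. For single genes an exact permutation test of 4 against 4 was used. The 10 genes, the other gene lists and the markers were chosen with earlier results of these data known. All 10 genes are named, with other probes where they differ, and of each list at most 4 genes per comparison by the size of the difference among those called. The 3 genes most like each were taken by r over 32 samples.

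The alternatives were the scanner's processed signal with quantile normalization, normexp (offset 50) with quantile or with loess and Aquantile normalization, the 75th percentile, a filter on dim probes, the probe of highest mean, array or replicate number as a block, only the groups compared, sample weights, the methods' t-test, the methods' thresholds (adjusted p under 0.001 and 4-fold), and each replicate number left out. Leaving out Ito and Kupffer replicate 4, or TME Ito replicate 2 and control Kupffer replicate 3, was chosen after seeing the data. The number of arrays limits the precision. R 4.3.3 and its package limma 3.58.1 were used for the fits, and Python 3.11.15 for the rest, namely numpy 2.4.6 and pandas 2.3.3 for tables and matplotlib 3.10.9 for plots.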

Additional observations from a re-analysis of the deposited data

Results flagged for a closer look

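In 16 of the 80 combinations of a gene and a group, 1 of the 4 samples stood far from the other 3, by a test (Dixon's ratio of the gap to the range) that chance passes in about 1 of 20 groups, or 4 of 80. Replicate 4 was that sample 8 times, replicate 2 5 times, replicate 1 2 times and replicate 3 once. No explanation was tested, and the values below are log2 levels.

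Of the samples whose arrays ran opposite to the others, control Ito replicate 4 was the lowest of its group for *Flt1* (7.98), *Flt4* (4.82) and *Angpt2* (12.24). TME Kupffer replicate 4 was the highest of its group for *Angpt2* (13.99) and the lowest for *Vegfa* (10.49) and *Kdr* (9.83). TME Ito replicate 2, the sample with the highest summed level of epithelial markers, was the highest of its group for *Vegfa* (10.67) and the lowest for *Tek* (5.98), and control Kupffer replicate 3 was the highest of its group for *Kdr* (11.54). TME endothelial replicate 2 was the lowest of its group for *Vegfc* (12.19).

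In the tumor groups the samples that stood apart were the highest of their group and mostly not well above background. These were *Kdr* in TM replicate 4 (4.31) and TP replicate 1 (4.14), *Tek* in TP replicate 1 (3.36), *Vegfc* in TP replicate 4 (2.14), and *Flt4* in replicate 2 of TM (4.93) and of TP (5.04), of which the *Flt4* values were well above background.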

How the results depend on the processing

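Over 19 alternatives the 10 genes gave 1520 differences, of which 1360 kept their direction and their side of the threshold, 46 lost and 44 gained a call, 67 changed sign while not called, and 3 called ones reversed. The 3 were *Kdr* with the probe of highest mean, at -0.64 in TME endothelial minus TME Ito, 0.34 in TM and 0.68 in TP minus the Kupffer groups, and another probe is the whole of that change. The cause was not tested for the others.

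Between TME and control endothelial cells, where no gene was called, *Kdr* alone was called with the scanner signal and with the 75th percentile (1 each, against 1.17% and 1.24% of all probes in the same setting), 3 genes (*Vegfc*, *Pgf*, *Kdr*) with normexp and quantile (1.24%) or loess normalization (2.31%) and with sample weights (12.3%), 3 (*Pgf*, *Kdr*, *Tek*) with only the groups compared (5.29%), 2 (*Pgf*, *Kdr*) with the methods' t-test (4.01%), and 1 (*Pgf*) without TME Ito replicate 2 and control Kupffer replicate 3 (2.15%). In Ito cells *Angpt2* (1 gene) was called with sample weights (14.6%) and without Ito and Kupffer replicate 4 (7.66%), and in Kupffer cells with sample weights (10.5%). The weights ran from 0.14 in TME Ito replicate 2 to 3.37.

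For TME endothelial minus TME Ito, 7 genes in place of 4 were called with normexp and quantile (7.95%) or loess normalization (9.16%) and with sample weights (24.6%), against 8.26% in the fit as reported, and 0 at the methods' thresholds with limma (0.871%) or with their t-test (0.00718%). For control endothelial minus control Ito these thresholds left 1 (*Kdr*) with limma (1.24%) and 0 with their t-test (0.286%). For TM and TP minus the Kupffer groups the methods' t-test at these thresholds gave 4 genes each (6.18% and 12.7%). For endothelial minus Ito differences, 1 gene (*Pgf*) was called with normexp and loess (0.44%), 2 (*Vegfc*, *Pgf*) with sample weights (6.4%) and 1 (*Pgf*) without replicate 4 (1.05%), and for endothelial minus Kupffer, 1 (*Pgf*) with only the groups compared (0.208%) and 3 (*Vegfc*, *Pgf*, *Kdr*) with sample weights (4.08%). Leaving out each replicate number gave 2 to 4 genes for control and 1 to 5 for TME endothelial minus Ito, 0 to 1 for TME minus control Ito and for the endothelial minus Ito difference, 9 for both tumor comparisons and 0 elsewhere.

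Samples of one number shared an array where they were the control and TME sample of a cell type, but their deviations from the group means were correlated at -0.64 to 0.40, not all above 0.1. With the replicate number as a fixed block, 3 genes in place of 4 were called for control endothelial minus control Ito, since *Tie1* was lost, and the array as a random block (correlation 0.0783) changed no count of these genes. Over all probes, the number called ranged from 32 to 6864 for TME minus control in endothelial (636 in the fit as reported), 1 to 8134 in Ito (161), 0 to 5821 in Kupffer cells (243), 12 to 2693 for TP minus TM (1676), 159 to 13506 and 4 to 13671 for control and TME endothelial minus Ito (5505 and 4597), and 3441 to 26054 and 7096 to 31811 for TM and TP minus Kupffer (21965 and 24254). Differences of the change between cell types gave 6 to 3562 for endothelial minus Ito (62), 7 to 2272 for endothelial minus Kupffer (45) and 0 to 102 for Ito minus Kupffer (2). In the tumor samples, *Vegfc*, *Flt4*, *Tek*, *Tie1* and the probes used for *Flt1* and *Kdr* are limited by signals at background.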
